A study of Mus musculus with 6 samples.

Results

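Haematopoietic stem cells and the endothelium that lines blood vessels use many of the same surface proteins, and 10 genes of that kind are described here: Angpt1, Tek, Tie1, Ptprb, Kdr, Cdh5, Pecam1, Esam, Procr and Plvap. They were taken by symbol from the platform annotation, and all 10 were measured among 22180 genes. The samples were stem cells sorted by flow cytometry from the bone marrow of C57BL/6J mice. There were 3 pools of CCR2-positive cells and 3 pools of CCR2-negative cells, each from the marrow of 20 mice, and no treatment, genotype or age distinguished them in the labels. CCR2 is the chemokine receptor that guides monocytes out of the marrow, and the comparison asks how stem cells that carry it differ from those that do not. The sources used here do not give the remaining gates of the sort, nor say if same-numbered pools shared their mice.

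Angiopoietin-1 (Angpt1) is the ligand that activates the receptor tyrosine kinase TEK, also called TIE2, on endothelium and on stem cells, where this signalling is known for keeping the cells quiescent and attached in their niche. TIE1 is the related receptor that forms complexes with TEK, and the phosphatase VE-PTP (Ptprb) removes phosphate from TEK and from the junction protein VE-cadherin (Cdh5). KDR is the main receptor of VEGF on endothelium. PECAM1 and ESAM are adhesion proteins of endothelial junctions that blood cells also carry. The protein C receptor (Procr) and ESAM are used to enrich stem cells by sorting, and PLVAP forms the diaphragms of endothelial pores.

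Each pool was measured on 1 array. The deposited values are log2 values from RMA, so a difference of 1 is a factor of 2 in linear signal. Arrays correlated at r = 0.966 to 0.974 within the CCR2-positive group, at 0.975 to 0.983 within the CCR2-negative group and at 0.960 to 0.977 between the groups. These correlations are across probe sets, and probe sets are not replicates. The transcript of the sorted receptor, Ccr2, had log2 values of 6.81, 7.10 and 6.18 in the CCR2-positive pools, against 5.63, 6.26 and 5.83 in the CCR2-negative pools. Its groups overlapped, since CCR2-positive replicate 3 lay below CCR2-negative replicate 2. Of a list of 14 stem cell markers, 12 were measured. Their mean log2 value was 7.21 to 7.56 in the CCR2-positive pools and 7.76 to 8.12 in the CCR2-negative pools, and these ranges are apart.

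Windows around a RefSeq start were at hand for 4 of the 10 genes. Those of Tek, Tie1 and Procr are shown because these genes had lower values in every CCR2-positive pool than in any CCR2-negative pool. Each window runs from 250 bases before to 50 bases after a RefSeq start on GRCm38.p6 and is written 5′ to 3′ on the strand of the gene. Tek is at chr4:94739039-94739338 on the plus strand, Tie1 at chr4:118489800-118490099 on the minus strand and Procr at chr2:155750967-155751266 on the plus strand. The annotated Tek and Procr genes begin at 94739086 and 155751125, so both windows are placed on starts further inside the gene. The Tie1 window is placed on the annotated gene start, 118489849. Capitals mark letters of 3 motifs of blood and endothelial transcription factors, searched on both strands: AGGAAG of the ETS family (CTTCCT on the other strand), GATAA of the GATA family (TTATC) and TGTGGT of the RUNX family (ACCACA).
Tek: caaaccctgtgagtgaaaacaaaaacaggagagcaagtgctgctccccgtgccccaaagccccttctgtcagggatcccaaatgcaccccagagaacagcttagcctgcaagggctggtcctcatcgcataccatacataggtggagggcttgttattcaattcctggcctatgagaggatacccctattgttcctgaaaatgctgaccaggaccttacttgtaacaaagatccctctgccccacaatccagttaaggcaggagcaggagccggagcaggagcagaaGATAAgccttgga
Tie1: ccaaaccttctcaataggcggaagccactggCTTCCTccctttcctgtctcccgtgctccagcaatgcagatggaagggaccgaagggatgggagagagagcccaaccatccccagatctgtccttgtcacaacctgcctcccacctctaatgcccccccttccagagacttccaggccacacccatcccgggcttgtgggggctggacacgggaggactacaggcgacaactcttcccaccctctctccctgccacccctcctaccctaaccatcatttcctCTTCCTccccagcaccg
Procr: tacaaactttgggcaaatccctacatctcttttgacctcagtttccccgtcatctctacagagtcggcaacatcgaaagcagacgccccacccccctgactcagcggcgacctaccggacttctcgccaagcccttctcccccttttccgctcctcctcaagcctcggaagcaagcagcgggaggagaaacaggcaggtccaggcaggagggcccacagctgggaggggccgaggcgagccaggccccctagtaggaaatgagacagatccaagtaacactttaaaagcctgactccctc
Tie1 held the ETS letters at 2 places, from positions -219 and 33 relative to the start used. Tek held the GATA letters from position 37, inside the annotated gene. Neither Procr nor the fourth window, that of Kdr, held the exact letters of any of the 3 motifs, and none of the 4 held the RUNX letters. The Kdr window, at chr5:75978406-75978705 on the minus strand, lies wholly inside the annotated gene, which begins at 75979072. Shorter or variant forms of the motifs were not searched. Of all 32851 windows of this length, 35.4% held the ETS letters, 25.4% the GATA letters and 16.8% the RUNX letters. The match is one of letters and shows no bound site.

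In limma, with Benjamini-Hochberg adjustment over all genes, 0 of the 10 genes had an adjusted p under 0.05, and neither had any other gene (0% of 22180, with 2716 at an unadjusted p under 0.05). At an unadjusted p under 0.05 there were 4 lower genes, Tek, Tie1, Angpt1 and Procr, where 6.61% of all genes were lower at this level, and 2 higher genes, Ptprb and Plvap, where 5.63% of all genes were higher. These are the same 6 genes whose groups did not overlap, against 7.88% of all genes not overlapping and lower and 10.8% not overlapping and higher. Irrespective of size, 8 of 10 differences were below 0, against 44.0% of all genes, and 2 were above 0, against 56.0% of all genes. The median difference of the 10 genes was -0.30, and that of all genes was 0.03. The share of lower genes depended on level. Without genes under the median level, 7 of the 7 members tested were lower, against 56.1% of the 11090 genes left. The medians were then -0.49 and -0.03. A lower level in a pool can come from fewer cells that carry the transcript or from less transcript per cell, and arrays of pooled cells cannot tell these apart.

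**Figure D1:**
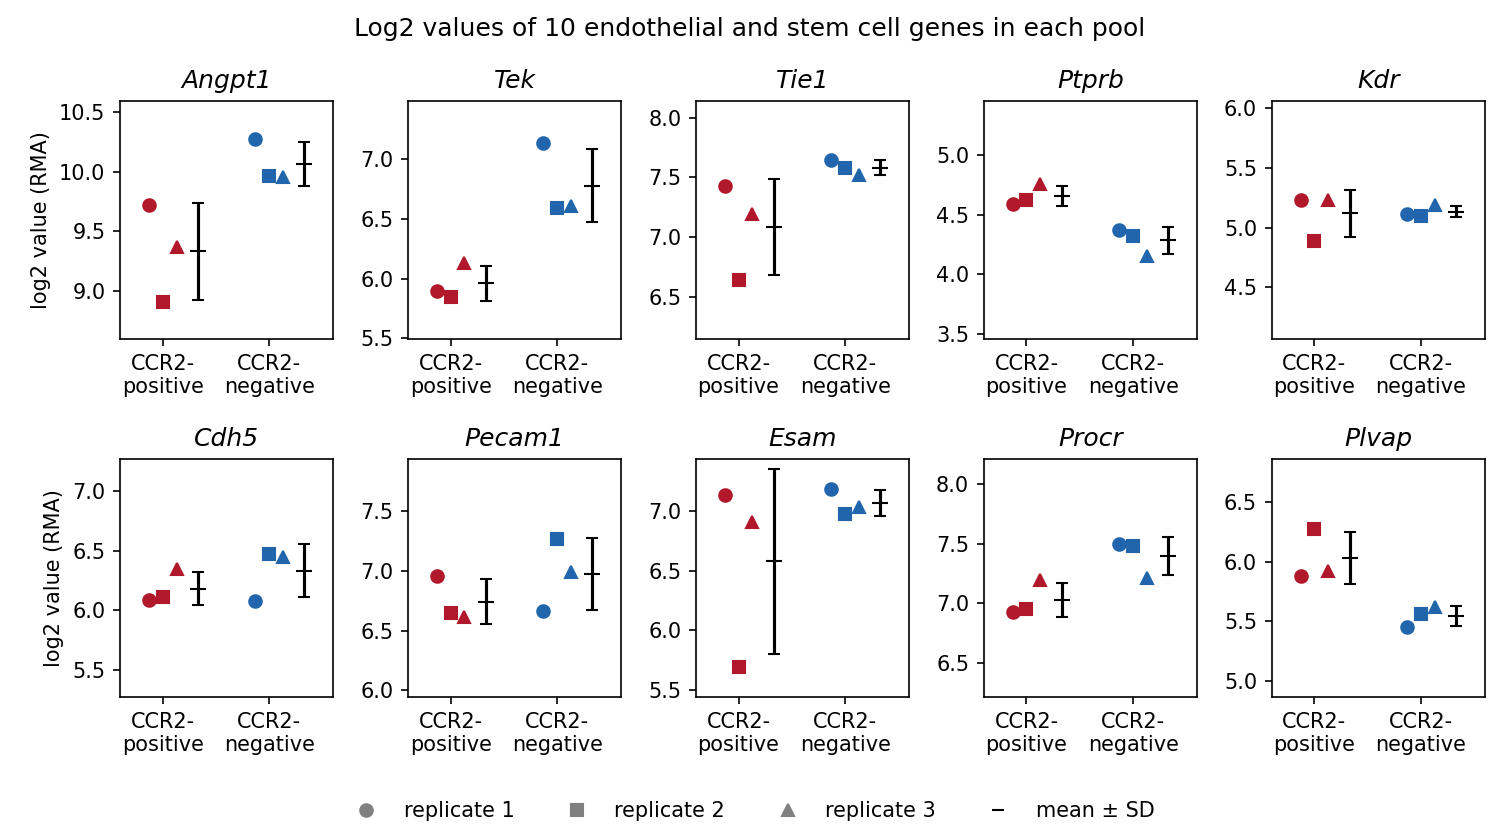
Log2 values of the 10 genes (vertical axis, a span of 2 log2 units in each panel) in the 3 CCR2-positive pools (red, left) and the 3 CCR2-negative pools (blue, right), with the mean ± SD of each group in black. The groups are apart for Angpt1, Tek, Tie1 and Procr, which are lower in CCR2-positive pools, and for Ptprb and Plvap, which are higher, while a single CCR2-positive pool lies far below the rest for Esam.

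Angpt1, a ligand of TEK, had log2 values of 9.72, 8.91 and 9.37 in the CCR2-positive pools, against 10.28, 9.96 and 9.96 in the CCR2-negative pools. All 3 CCR2-positive pools lay below all 3 CCR2-negative pools, with CCR2-positive replicate 2 the lowest. The means were 9.33 ± 0.40 and 10.06 ± 0.18 (SD, n = 3 each), a 1.66-fold lower signal in CCR2-positive cells. The difference was -0.73 ± 0.20 (SE), with a 95% interval of -1.19 to -0.28, limma p-values of 0.0055 unadjusted and 0.236. adjusted

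Angpt1 was the single gene of the 10 with more than 1 probe set. The dimmer set had log2 values of 5.91, 5.73 and 6.05 in the CCR2-positive pools, against 6.40, 6.35 and 6.24 in the CCR2-negative pools. Its groups were apart in the same direction, and CCR2-positive replicate 2 was again the lowest pool. The difference in this set was -0.43 ± 0.12 (SE), with a 95% interval of -0.71 to -0.15. Over all probe sets the adjusted limma p was 0.346 for the dimmer and 0.365 for the brighter set.

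Tek, the receptor of angiopoietin-1, had the largest absolute difference of the 10 genes. Its log2 values were 5.90, 5.85 and 6.13 in the CCR2-positive pools, against 7.13, 6.59 and 6.61 in the CCR2-negative pools. The CCR2-positive pools lay close together and below the others, and CCR2-negative replicate 1 was the highest by a wide margin. The difference of the means, 5.96 ± 0.15 and 6.78 ± 0.31 (SD, n = 3 each), was -0.82 ± 0.16 (SE), a 1.76-fold lower signal with a 95% interval of -1.19 to -0.45. Its unadjusted limma p was 8.8e-04 and its adjusted p 0.177. With any 1 pool left out the difference stayed between -0.91 and -0.64, the smallest being that without CCR2-negative replicate 1.

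Tie1, the companion receptor, had log2 values of 7.42, 6.64 and 7.19 in the CCR2-positive pools, against 7.64, 7.58 and 7.52 in the CCR2-negative pools. The CCR2-negative pools were nearly equal, and the nearest CCR2-positive pool, replicate 1, lay just below them. The difference was -0.50 ± 0.19 (SE), 1.41-fold, with limma p-values of 0.027 unadjusted and 0.344. adjusted Much of its size came with CCR2-positive replicate 2, for it was -0.27 without that pool.

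Ptprb, the phosphatase that acts on TEK and VE-cadherin, was higher in the CCR2-positive pools. Its log2 values were 4.59, 4.62 and 4.75 in them, against 4.37, 4.32 and 4.15 in the CCR2-negative pools. The groups did not overlap, and each was tight. The difference was 0.37 ± 0.11 (SE), 1.29-fold, with a 95% interval of 0.13 to 0.62 and limma p-values of 0.0080 unadjusted and 0.256 adjusted. Angpt1, Tek and Tie1 had lower values, and Ptprb a higher value, in every CCR2-positive pool than in any CCR2-negative pool. Angpt4, another TEK ligand, went the other way from Angpt1, by 0.30 ± 0.11 (SE). The mean log2 values of Tek (6.37), Ptprb (4.47) and Angpt4 (5.46) over the 6 pools lay within the range of unused receptor genes given below.

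Kdr, the VEGF receptor, had log2 values of 5.23, 4.89 and 5.23 in the CCR2-positive pools, against 5.12, 5.10 and 5.19 in the CCR2-negative pools. The CCR2-positive pools lay on both sides of the others. The difference was -0.02 ± 0.12 (SE), with a 95% interval of -0.29 to 0.26, and its sign turned with array weights (0.010), without CCR2-positive replicate 2 (0.098) and without CCR2-negative replicate 3 (0.011). The interval leaves room for a difference of either sign within these bounds.

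**Figure D2:**
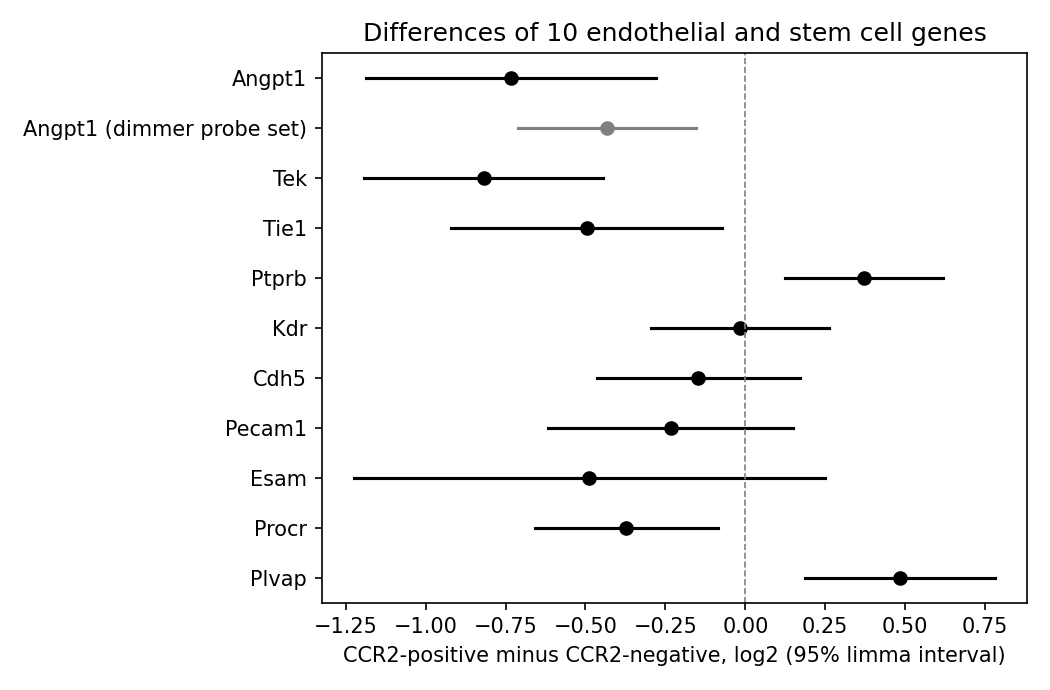
Difference in log2 value, CCR2-positive minus CCR2-negative pools (horizontal axis), with its 95% limma interval for each gene and, in grey, for the dimmer probe set of Angpt1. The intervals of Angpt1, Tek, Tie1 and Procr lie below 0, those of Ptprb and Plvap above 0, and those of Kdr, Cdh5, Pecam1 and Esam include 0.

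The adhesion genes Cdh5, Pecam1 and Esam did not separate the groups. VE-cadherin (Cdh5), which holds endothelial cells together, had log2 values of 6.09, 6.12 and 6.35 in the CCR2-positive pools, against 6.08, 6.47 and 6.45 in the CCR2-negative pools. CCR2-negative replicate 1 had the lowest value of all, just under CCR2-positive replicate 1. The difference was -0.15 ± 0.14 (SE), with a 95% interval of -0.46 to 0.17, and it was -0.28 without CCR2-negative replicate 1 and -0.08 without CCR2-negative replicate 2.

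Pecam1, which encodes CD31, had log2 values of 6.96, 6.65 and 6.62 in the CCR2-positive pools, against 6.67, 7.27 and 6.99 in the CCR2-negative pools. The groups overlapped, and CCR2-negative replicate 2 was the highest. The difference was -0.23 ± 0.17 (SE), with a 95% interval of -0.62 to 0.15, and it was -0.39 without CCR2-negative replicate 1 and -0.09 without CCR2-negative replicate 2.

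Esam, the adhesion molecule also used to sort stem cells, had log2 values of 7.13, 5.69 and 6.91 in the CCR2-positive pools, against 7.18, 6.98 and 7.03 in the CCR2-negative pools. CCR2-positive replicate 2 lay more than 1 log2 unit below every other pool, and the other CCR2-positive pools were on either side of the lowest CCR2-negative one. The difference was -0.49 ± 0.32 (SE), with a 95% interval of -1.22 to 0.25 and an adjusted limma p of 0.571. It was -0.05 without CCR2-positive replicate 2, so the lower mean of Esam rested on that pool, and -0.76 without CCR2-positive replicate 1.

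Procr, the endothelial protein C receptor, had log2 values of 6.93, 6.95 and 7.19 in the CCR2-positive pools, against 7.49, 7.48 and 7.21 in the CCR2-negative pools. The groups were apart by a narrow margin, with replicate 3 of each almost equal. The difference was -0.37 ± 0.13 (SE), 1.29-fold, with a 95% interval of -0.66 to -0.09, limma p-values of 0.0168 unadjusted and 0.304. adjusted With 1 pool left out it was between -0.46 and -0.32.

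Plvap, the diaphragm protein of endothelial pores, was higher in the CCR2-positive pools. Its log2 values were 5.88, 6.28 and 5.93 in them, against 5.45, 5.56 and 5.62 in the CCR2-negative pools. All CCR2-positive pools lay above the others, and CCR2-positive replicate 2 was the highest. The difference was 0.48 ± 0.13 (SE), 1.40-fold, with a 95% interval of 0.19 to 0.78, limma p-values of 0.0054 unadjusted and 0.235. adjusted

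The table gives no detection calls, so the levels were set beside those of 1394 olfactory and vomeronasal receptor genes, which marrow cells are not known to use. The mean log2 values of these genes had a median of 3.68, and their central 95% ran from 2.81 to 6.53. Over the 6 pools Tie1 (7.33), Angpt1 (9.70), Pecam1 (6.86), Esam (6.82) and Procr (7.21) lay above that range. Tek (6.37), Cdh5 (6.26), Plvap (5.79), Kdr (5.13) and Ptprb (4.47) lay within it. Probe sets differ in affinity, so these levels give no order among genes and do not show that a transcript was absent. Of the 10 genes, both with higher values in CCR2-positive cells were among those within the range. Several genes named from the lists below also lay within it. Among them were Vegfc (6.03), Angpt4 (5.46), Nrp1 (4.36), Flt4 (5.89), Pros1 (5.53), Jam2 (5.50), Robo4 (6.10), Gpihbp1 (6.01), Sele (4.51) and Sox17 (6.08).

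The 10 genes did not vary as a block. CCR2-positive replicate 2 was the lowest pool for 5 of them, Angpt1, Tek, Tie1, Kdr and Esam, and the highest for Plvap. CCR2-negative replicate 1 was the highest for Angpt1, Tek, Tie1, Esam and Procr, and the lowest for Cdh5 and Plvap. In CCR2-positive replicate 2 Esam lay -1.13 from its own mean over the 6 pools, Angpt1 -0.79 and Tie1 -0.69. Tek lay 0.76 above its mean in CCR2-negative replicate 1. Without CCR2-positive replicate 2, 7 of 10 genes were lower, the median difference was -0.15, and Tek, Angpt1 and Procr had an unadjusted p under 0.05 among the lower genes.

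**Figure D3:**
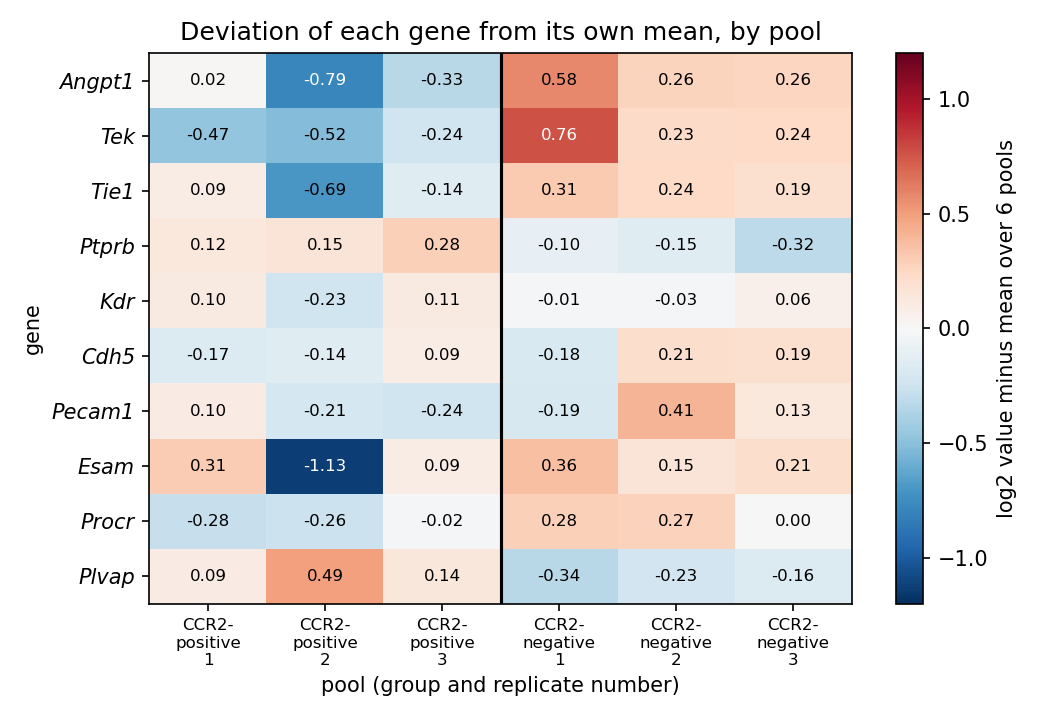
Log2 value of each gene minus its mean over the 6 pools (colour and printed value), with CCR2-positive pools left and CCR2-negative pools right of the black line. CCR2-positive replicate 2 holds the strongest negative deviations (Esam -1.13, Angpt1 -0.79, Tie1 -0.69), and Ptprb and Plvap run opposite to Tek in every pool.

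**Figure D4:**
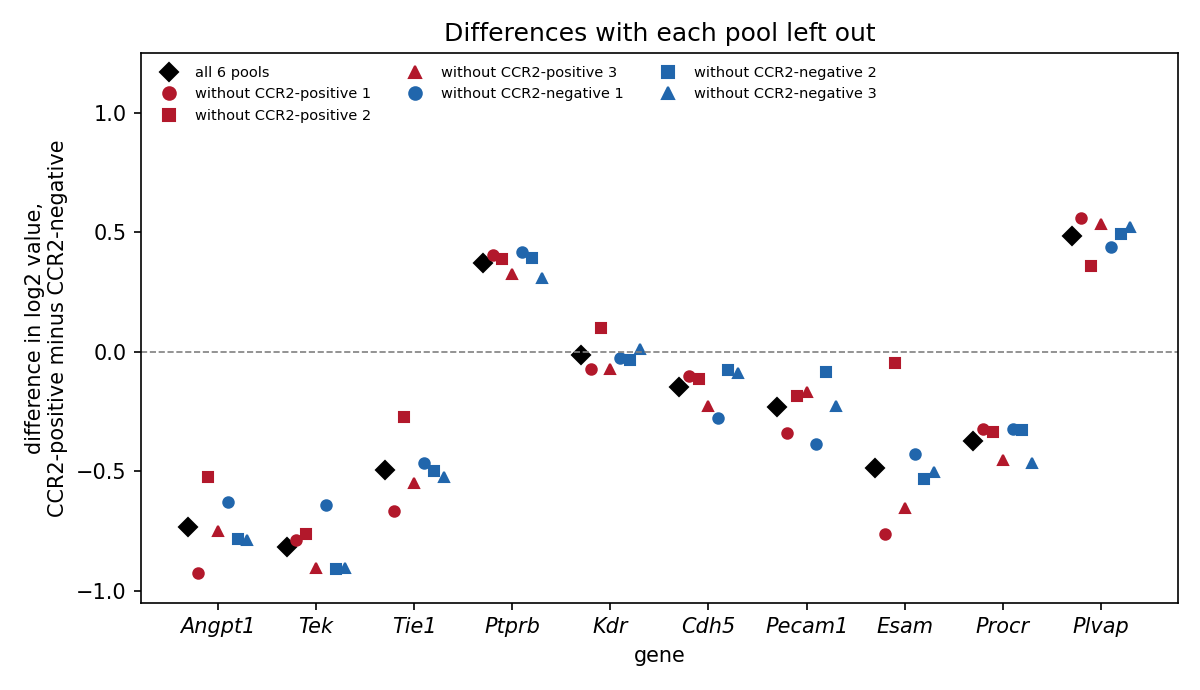
Difference in log2 value, CCR2-positive minus CCR2-negative (vertical axis), with all 6 pools (black) and with each CCR2-positive (red) or CCR2-negative (blue) pool left out. All genes but Kdr keep their sign in every case. Esam is at -0.05 and Tie1 at -0.27 without CCR2-positive replicate 2. Procr is between -0.46 and -0.32, with an unadjusted limma p above 0.05 without CCR2-positive replicate 1 or CCR2-negative replicate 1 or 2.

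Further genes of the angiopoietin and VEGF pathways had no common direction. Among 12 ligands, receptors and adaptors 5 were lower and 7 higher, and the median difference was 0.08 (0.05 without CCR2-positive replicate 1). In limma 0 had an adjusted p under 0.05, and 1 lower and 2 higher genes had an unadjusted p under 0.05. Of all genes 6.61% were lower and 5.63% higher at this level. Vegfc, a VEGF ligand best known from lymphatic vessels, had log2 values of 5.93, 5.55 and 5.66 in the CCR2-positive pools, against 6.76, 6.39 and 5.88 in the CCR2-negative pools. CCR2-positive replicate 1 was above CCR2-negative replicate 3, and the difference was -0.63 ± 0.21 (SE), with a limma adjusted p of 0.305. Angpt4, another TEK ligand, differed by 0.30 ± 0.11, the VEGF co-receptor Nrp1 by 0.27 ± 0.11 and the VEGF-C receptor Flt4 by 0.20 ± 0.11 (SE). The groups were apart for Angpt4 and Nrp1 and overlapped for Flt4. Angpt2, which competes with angiopoietin-1 for TEK in many settings, differed by -0.07 and turned sign with the pool left out (-0.25 to 0.06).

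Around Procr, 8 genes of the protein C pathway were measured. Among them 5 were lower and 3 higher, and their median was -0.17. The split was 4 lower and 4 higher without CCR2-negative replicate 1 (median -0.07) and without CCR2-positive replicate 2 (median -0.09). The thrombin receptor family member F2rl2 was higher without overlap, by 0.45 ± 0.16 (SE), or 0.30 without CCR2-negative replicate 2. Pros1, which encodes the protein S cofactor, was lower without overlap, by -0.30 ± 0.13, or -0.20 without CCR2-negative replicate 1. Tfpi, an inhibitor of coagulation, differed by -0.27 ± 0.12 and F2rl3, another thrombin receptor gene, by -0.35 ± 0.18 (-0.22 without CCR2-negative replicate 1), with overlapping groups. Around Cdh5 and Esam, 6 of 11 junction genes were lower, with a median of -0.05 that was 0.00 without CCR2-negative replicate 1 and -0.14 without CCR2-negative replicate 2. Ctnnd1, which encodes the p120 catenin that binds cadherins, differed by -0.36 ± 0.13, and the junctional adhesion molecule gene Jam2 by -0.29 ± 0.10, both without overlap. F11r, another junctional adhesion molecule gene, differed by -0.44 ± 0.22 and Afdn, which encodes the scaffold afadin, by -0.27 ± 0.14, with overlap. Without CCR2-positive replicate 2 they differed by -0.21 and -0.15, and F11r differed by -0.68 without CCR2-positive replicate 1. None of the genes of either list passed the adjusted p of 0.05 in limma. At an unadjusted p under 0.05 there were 1 lower and 1 higher protein C gene and 2 lower junction genes. Of all genes 6.61% were lower and 5.63% higher at this level.

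Other genes that stem cells share with endothelium had mostly lower values in CCR2-positive cells. Among 13 measured genes 11 were lower and 2 higher, and the median difference was -0.40. In limma 0 had an adjusted p under 0.05, and 7 of the lower ones had an unadjusted p under 0.05. At this level 6.61% of all genes were lower. Emcn, which encodes the sialomucin endomucin, had log2 values of 6.55, 6.25 and 6.71 in the CCR2-positive pools, against 7.87, 7.27 and 7.12 in the CCR2-negative pools. Its groups were apart, and CCR2-negative replicate 1 was the highest, as for Tek. Its difference was -0.92 ± 0.20 (SE), with a limma adjusted p of 0.183. Cd93, which encodes a C-type lectin-like receptor, differed by -0.68 ± 0.12, Cd34 by -0.83 ± 0.17 and the transcriptional adaptor gene Lmo2 by -0.45 ± 0.13, all without overlap. The median of this list was -0.33 without CCR2-positive replicate 2.

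Markers of endothelium itself included both higher and lower genes. Among the 18 that were measured, 14 were higher and 4 lower, and the median difference was 0.12. With cyclic loess 10 were higher and 8 lower (median 0.06), and the median was also 0.06 without CCR2-positive replicate 3 or CCR2-negative replicate 2. Their mean log2 value was 5.36 to 5.50 in the CCR2-positive pools, against 5.23 to 5.42 in the CCR2-negative pools, and these ranges overlap. Robo4, a guidance receptor gene of endothelium that stem cells also use, was lower without overlap, by -0.54 ± 0.17 (SE), or -0.35 without CCR2-negative replicate 1. Gpihbp1, which anchors lipoprotein lipase on capillaries, was higher without overlap, by 0.37 ± 0.13. Sele, which encodes E-selectin, differed by 0.32 ± 0.13 with overlap, and the endothelial transcription factor gene Sox17 by 0.22 ± 0.10 without. Their part in the values of Plvap and Ptprb was not tested.

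**Figure D5:**
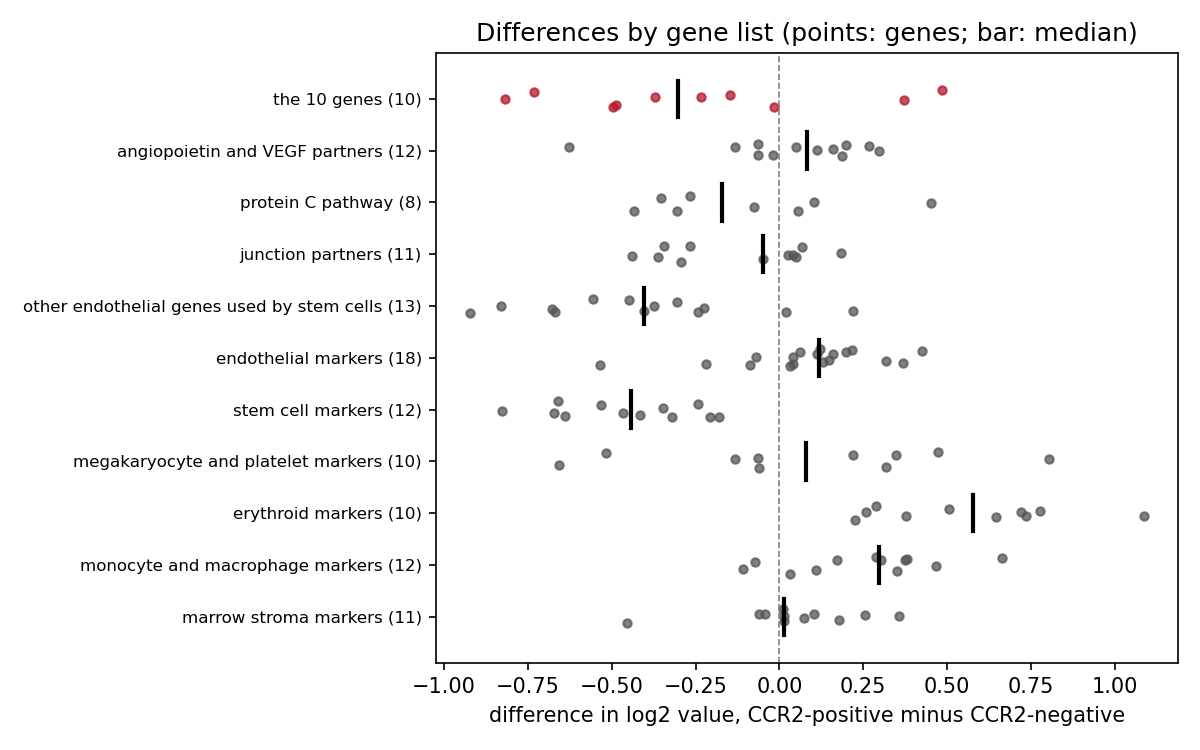
Difference in log2 value, CCR2-positive minus CCR2-negative (horizontal axis), for each gene (points) and the median (black bar) of the 10 genes (red) and of 10 further lists, with the number measured in brackets. Medians are lowest for stem cell markers (-0.44), other endothelial genes used by stem cells (-0.40) and the 10 genes (-0.30), and highest for erythroid markers (0.58).

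Markers of other cells differed between the pools as well. All 12 stem cell markers were lower, with a median difference of -0.44, and 6 had an unadjusted limma p under 0.05. Without CCR2-negative replicate 1, 11 of 12 were lower and the median was -0.35. Without CCR2-positive replicate 2 the median was -0.32. The smallest p-values were those of the transcription factor genes Hoxb5 (-0.47 ± 0.11, SE), Hlf (-0.66 ± 0.17), Meis1 (-0.64 ± 0.17) and Hoxa9 (-0.67 ± 0.19). All 10 measured erythroid markers were higher, with a median of 0.58 and list means of 9.00 to 9.48 in the CCR2-positive pools, against 8.40 to 8.79 in the CCR2-negative pools. The erythroid median was 0.44 without CCR2-positive replicate 2 and 0.73 without CCR2-positive replicate 3. Monocyte and macrophage markers were higher in 10 of 12 cases, with a median of 0.30 and list means of 6.17 to 6.40 against 5.93 to 6.08. That median was 0.19 without CCR2-positive replicate 2 and 0.15 without CCR2-negative replicate 1. At an unadjusted limma p under 0.05, 8 erythroid markers and 4 monocyte and macrophage markers were higher. Of all genes 6.61% were lower and 5.63% higher at this level. CCR2-positive replicate 2 had the highest erythroid and monocyte means and the lowest stem cell mean of all pools, and CCR2-negative replicate 1 had the opposite extremes. These are the pools in which Angpt1, Tek, Tie1 and Esam were lowest and highest, and Plvap highest and lowest. Procr, Kdr, Cdh5, Pecam1 and Ptprb did not have both extremes in these pools, and Cdh5 was lowest in CCR2-negative replicate 1. The part of these other cells in the values of the 10 genes was not tested.

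Megakaryocytes and platelets also carry PECAM1 and ESAM and hold angiopoietin-1, and marrow stroma makes angiopoietin-1. Of 10 megakaryocyte and platelet markers 5 were lower and 5 higher, with a median of 0.08, and list means of 6.83 to 7.30 in the CCR2-positive pools, against 6.87 to 7.11 in the CCR2-negative pools. That median was -0.06 without CCR2-positive replicate 3 and 0.17 without CCR2-positive replicate 2. Selp, which encodes P-selectin, differed by -0.66 ± 0.13 (SE) and the platelet glycoprotein gene Gp9 by -0.52 ± 0.20 (-0.27 without CCR2-negative replicate 1), both without overlap. The platelet chemokine gene Ppbp differed by 0.80 ± 0.36 (0.34 without CCR2-positive replicate 3, its highest pool) and the collagen receptor gene Gp6 by 0.32 ± 0.14, with overlap. Of 11 stroma markers 3 were lower and 8 higher, with a median of 0.01, and list means of 5.20 to 5.31 against 5.17 to 5.21. The split depended on the scaling and on 1 pool, with 6 lower and 5 higher after median centring (median -0.01) or without CCR2-positive replicate 3 (median -0.04), and 5 lower and 6 higher after a second quantile normalization or cyclic loess. The collagen gene Col1a2, which had 2 probe sets, was lower without overlap in the brighter set, by -0.45 ± 0.11. With both sets averaged, 0 stroma markers were lower at an unadjusted limma p under 0.05, against 1, Col1a2, with the brighter set alone. The osteocalcin gene Bglap was higher without overlap, by 0.36 ± 0.10. So was the niche chemokine gene Cxcl12, by 0.26 ± 0.11 (0.17 without CCR2-positive replicate 1). The part of megakaryocytes, platelets and stroma in the values of Angpt1, Pecam1 and Esam was not tested.

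The genes with the pattern most like that of a member were sought for the 4 members whose values spanned over 1 log2 unit, by the root mean square difference between centred log2 values over the 6 pools. For Tek these were Plcb2, which encodes a phospholipase of haematopoietic cells (0.075), Itih5, an inter-alpha-trypsin inhibitor gene (0.087), and the cation channel gene Trpc6 (0.096). For Angpt1 they were the homeobox gene Meis1 (0.082), Cxxc5 (0.087) and the RNA-binding protein gene Rbpms (0.096). Tie1 was closest to Tbc1d10c (0.068), Glmp (0.075) and Mfng (0.077), a modifier of Notch receptors. Esam was less closely matched, by the ubiquitin ligase gene Peli1 (0.123), Syde1 (0.172) and Chrnb1 (0.173). In Peli1 the log2 values were 7.39, 6.32 and 7.25 in the CCR2-positive pools, against 7.67, 7.39 and 7.33 in the CCR2-negative pools, with CCR2-positive replicate 2 alone set apart, as for Esam.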

How the data were processed

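Per the labels' protocols, 5 ng of total RNA from each pool of sorted cells went into whole-transcriptome amplification and biotin labelling. The authors deposited log2 values of 41345 probe sets for 6 arrays, made with RMA per the submitters' processing notes. RMA equalises the arrays, so differences are relative to the other genes of an array. The sources used here name no version or settings of it. The platform annotation gave 1 gene for 23521 probe sets, several for 1814, which were left unnamed, and none for 16010. The probe set with the highest mean over the 6 arrays was used for each of 22180 genes.

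CCR2-positive pools were compared with CCR2-negative pools by limma 3.58.1 in R 4.3.3 (lmFit, eBayes, Benjamini-Hochberg over all genes, threshold 0.05), which was tested on simulated data. The p-values measure the spread between pools, which includes that of the amplification. The number of arrays limits the precision, with a median standard error of 0.127. The 10 genes and the 10 lists (113 of 124 symbols measured, some in more than 1 list) were chosen with earlier results of these data known. Genes named from a list were among its 4 with the smallest p, since none passed the threshold. Also named were the 3 genes most like each member that spanned over 1 log2 unit. Angpt2 was named outside that rule, after its value was seen. Alternatives were 2 filters on dim genes, 3 further normalizations, a replicate block, eBayes with trend and robust, array weights, the mean of probe sets and leaving out each pool.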

Additional observations from a re-analysis of the deposited data

How the results depend on the processing

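None of the 10 genes passed an adjusted p of 0.05 under any of the 15 alternatives, and their differences kept their sign, with the exception of Kdr, which turned to 0.010 with array weights and ranged from -0.073 to 0.098 with 1 pool left out. Over all genes 0 passed with all pools and 0 to 2 with 1 left out. The 2 were Mcpt8 and Gca, without CCR2-positive replicate 1. The number of lower genes was 7 to 8 of 10 with 1 pool left out. The median difference was -0.35 to -0.15 with 1 pool left out. It was -0.49 without genes under the median level, against -0.03 for all genes left. There 3 of the 10 (Ptprb, Plvap and Kdr) were no longer tested. At an unadjusted p under 0.05, Tek, Angpt1, Ptprb and Plvap stayed under every alternative in which they were tested. Tie1 was lost after a second quantile normalization, with cyclic loess or array weights, and without CCR2-positive replicate 2 or CCR2-negative replicate 1 or 2. Esam was under it without CCR2-positive replicate 1 and Pecam1 without CCR2-negative replicate 1, though neither was with all pools. Procr was lost after a second quantile normalization and without CCR2-positive replicate 1 or CCR2-negative replicate 1 or 2. The counts over lists and the differences of their genes without each pool were chosen after seeing the data. Same-numbered pools deviated together weakly (r = 0.035, 0.089 and 0.045 over genes), and not every pool was closest to its own number. Such weak values cannot settle whether the pools were paired, and the main fit took no pairs. With the replicate block 0 genes passed as well, the median difference was -0.30, and 2935 genes had an unadjusted p under 0.05, against 2716 without it. The smallest adjusted limma p over all genes was 0.062 with the block and 0.177 without it. With the block the unadjusted limma p fell for Angpt1 (0.0012) and rose for Tek (0.0015) and Procr (0.035). No detection calls or raw intensities were used, so signal over background is unknown for the dim genes.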
